A study of Rattus norvegicus with 9 samples.

Results

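The genes described here encode adhesive glycoproteins of the extracellular matrix, laminins with their basement membrane partners, and the proteins of elastic fibres. They were chosen by symbol from a list of 41 names, with no threshold on a measured value, and 38 of the 18924 genes in the deposited table carried one of those names. Tnxb, Hspg2 and Lama3 matched no row under those symbols and are not counted among the members. A further 3 members, Lama1 (0 to 11 counts per library), Vtn (0 to 3) and Mfap4 (0 to 2), lay below the filter on low counts, which left 35 tested members among 13856 tested genes. The series asks how thrombin, the clotting protease that also signals through protease-activated receptors, acts on cartilage cells. Primary chondrocytes of Sprague-Dawley (SD) rats, at passage 1 or 2, received for 24 h either rat plasma and nothing else (RP, n = 3), thrombin in addition to the plasma (RPT, n = 3), or the plasma with both thrombin and an inhibitor (RPTi, n = 3). All 3 groups therefore contained plasma, and neither the inhibitor nor any dose is named in the labels. No group received plasma and the inhibitor without thrombin, so effects of the inhibitor itself and of blocked thrombin cannot be told apart. Since nothing in the labels ties a library to an animal or a culture of its own, the p-values below speak for the scatter of these libraries, part or all of which may be technical.

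Fibronectin and the matricellular glycoproteins (thrombospondins, tenascins, SPARC and its relatives) link cells to the matrix or tune that contact, and chondrocytes in culture are rich in fibronectin. Laminins are trimers of an alpha, a beta and a gamma chain that form a sheet, joined to the collagen IV network by nidogens and by the heparan sulfate proteoglycans perlecan and agrin. In cartilage, basement membrane components surround single chondrocytes as part of the pericellular matrix. Elastic fibres consist of an elastin core on a scaffold of fibrillin microfibrils, with microfibril-associated glycoproteins, fibulins and emilins placed along them.

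A library held 31877265 to 43962783 counts, so that a single count was worth 0.0227 to 0.0314 CPM (counts scaled to library size). The 10 chondrocyte markers, among them Col2a1, Acan and Sox9, were all present, with a summed level of 47685 to 48676 CPM in RP, 29917 to 31725 CPM in RPT and 73581 to 79876.5 CPM in RPTi. All 10 fell with thrombin and all 10 were higher with the inhibitor than with thrombin alone. The 7 fibroblast-type markers summed to 15756 to 17032 CPM in RP, 9535 to 10407 CPM in RPT and 16060 to 17666 CPM in RPTi, most of it from the collagen genes Col1a1 and Col3a1. By gene, 3 of these 7 fell and 1, Dcn, rose with thrombin, while Col1a1 and Col3a1 were higher and Pdgfra, Dcn and Thy1 lower with the inhibitor than with thrombin alone (median log2 -0.30). The 9 pericyte and smooth muscle markers summed to 788 to 865, 733 to 851 and 1790.5 to 1939 CPM in the same order, most of it from Cspg4. The pericyte gene Rgs5 had 2 counts or fewer in every library. Of the 8 tested, 3 fell (Acta2, Notch3 and Pdgfrb) and 0 rose with thrombin. With the inhibitor 6 were higher and 0 lower than with thrombin alone, Acta2 by 6.89-fold. Against plasma 4 were higher in RPTi, Acta2 by 4.17-fold, and 1 was lower. Each of the 6 endothelial markers with a row, the 4 epithelial markers and the 3 fat markers stayed below 1 CPM in every library, and the macrophage and leukocyte markers together reached 2.45 to 5.11 CPM. The part of these marker shifts in the results below was not tested, and in bulk RNA fewer cells of a type and less RNA per cell cannot be told apart.

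These genes spanned about 4 orders of magnitude in level. On the FPKM scale (fragments scaled by gene length and library total), which allows genes of different length to be compared, Fn1, the fibronectin gene, stood at 5322 ± 61.4 in RP, 6314 ± 83.03 in RPT and 4118 ± 95.7 in RPTi (mean ± SD, n = 3, as for all ± values of levels below). Fn1 had the highest mean count of all genes and ranked 5 by mean FPKM. Sparc, which encodes a collagen-binding calcium-binding glycoprotein, followed at 3889.6 ± 98.1 FPKM in RP and ranked 9 among all genes. Next came the thrombospondin gene Thbs1 (1212 ± 24.9 FPKM in RP), the elastin gene Eln (599 ± 23.1) and the nidogen gene Nid2 (362 ± 2.58). At the other end of the tested members, the laminin alpha chain gene Lama2 stood at 0.491 ± 0.0142 FPKM in RP and Dpt, encoding the small matrix protein dermatopontin, at 1.22 ± 0.312 FPKM.

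**Figure D1:**
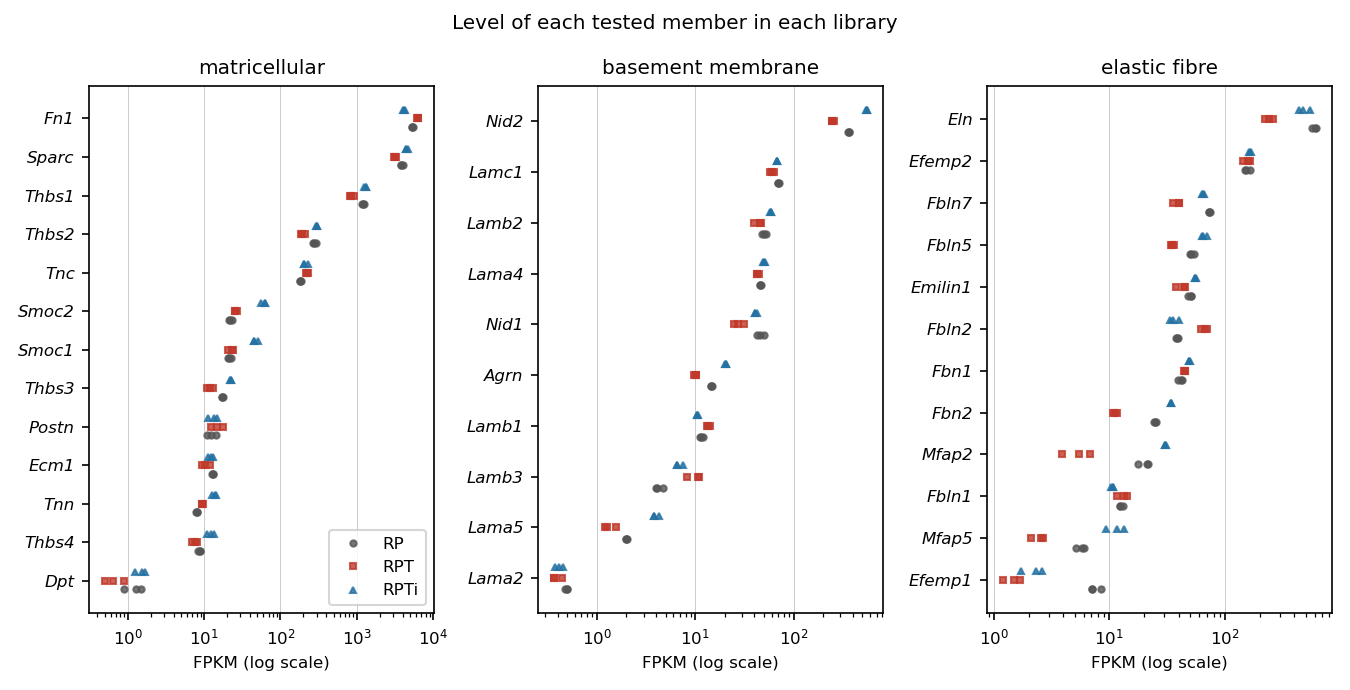
FPKM of the 35 tested members on a log axis, 1 point per library, with RP as grey circles, RPT as red squares and RPTi as blue triangles, split into the matricellular, basement membrane and elastic fibre genes. Fn1, Sparc and Thbs1 lead, and the red squares of Mfap2, Mfap5, Fbn2 and Eln lie apart from the other libraries on the low side.

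As a share of the RNA, the members with and without Fn1 moved in opposite directions. All 38 members together took 6.73% ± 0.0503 of the counts in RP, 7.06% ± 0.0559 in RPT and 6.004% ± 0.108 in RPTi. Fn1 alone took 4.47% ± 0.0516 of all counts in RP, 5.31% ± 0.0698 in RPT and 3.46% ± 0.0805 in RPTi. The other 37 members together took 2.25% ± 0.0168 in RP, 1.75% ± 0.0151 in RPT and 2.54% ± 0.0282 in RPTi. Ranges of the groups did not overlap for any of these sums, with RPT highest for Fn1 and lowest for the rest. Laminins and their partners had 0.313% ± 0.00169, 0.239% ± 0.00337 and 0.411% ± 0.00536 of the counts in RP, RPT and RPTi, again without overlap. Elastic fibre genes had 0.366% ± 0.00969, 0.228% ± 0.0127 and 0.347% ± 0.0214, where RP and RPTi overlapped and RPT lay below both.

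**Figure D2:**
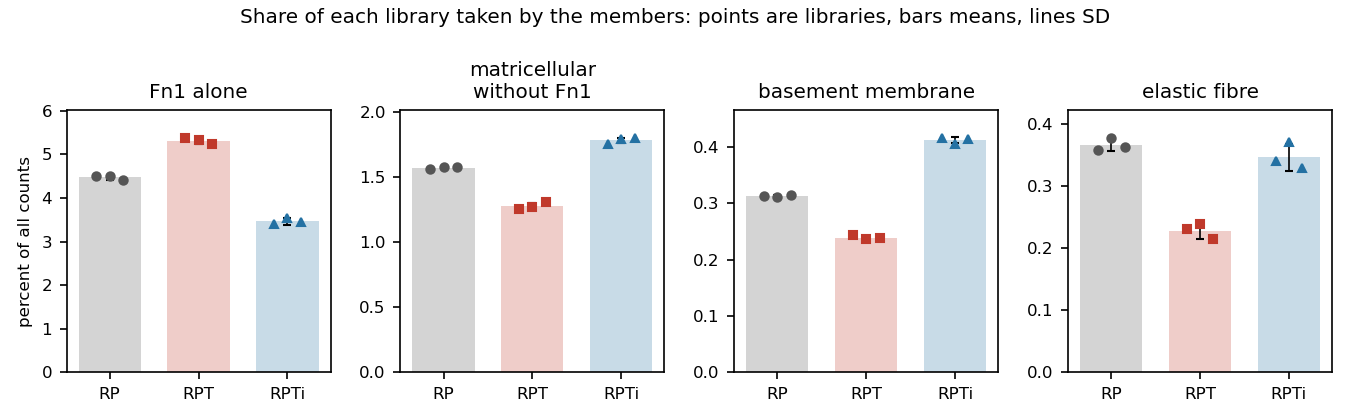
Percent of all counts in each library (points; bars are group means and lines SD, n = 3) taken by Fn1, by the other matricellular glycoproteins, by laminins and basement membrane partners and by elastic fibre genes. Fn1 is highest in RPT, while each of the other classes is lowest there.

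With thrombin, most of these genes were lower than in plasma alone. Of 35 tested members, 20 fell, 7 rose and 8 did not pass (edgeR quasi-likelihood test, adjusted p below 0.05 over all tested genes). Over all 13856 genes 28.9% were called, 15.2% falling and 13.6% rising. The median log2 fold change of the members was -0.30, against -0.000707 over all tested genes. Efemp1, Mfap2, Eln, Mfap5 and Fbn2, all elastic fibre genes, fell by at least 2-fold, as 3.57% of all genes did. Lamb3 alone among the members rose by at least 2-fold (1.57% of all genes), and the other rises, those of Fbln2, Tnc, Tnn, Fn1, Smoc2 and Lamb1, were smaller.

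With the inhibitor added to thrombin, 26 of 35 members were higher than with thrombin alone, 5 were lower and 4 did not pass. The background was 41.5% of all genes called, 20.4% higher and 21.1% lower, and the median log2 fold change was 0.62 for the members and -0.00827 for all genes. Of all called genes 49.2% were higher, a share that came to 38.4% with library totals in place of TMM factors and to 38.8% on log2(FPKM + 1), while 25 members were higher and 5 lower under both of these scalings. Mfap2, Mfap5, Fbn2, Lama5, Smoc2, Nid2, Dpt, Smoc1, Agrn and Eln were at least 2-fold higher (5.78% of all genes). The 5 lower ones were Fn1, Lamb3, Lamb1, Fbln2 and Fbln1.

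Against plasma alone, cells with thrombin and the inhibitor had 19 of 35 members higher and 3 lower, while 13 did not pass. Among all genes 24.2% were called, 11.9% higher and 12.3% lower, and the medians were 0.26 for the members and -0.00643 for all genes. Of all called genes 49.1% were higher, against 36.6% with library totals and 38.8% on log2(FPKM + 1), where 17 and 16 members were higher and 4 and 5 lower. Smoc2, Smoc1, Mfap5 and Lama5 were at least 2-fold higher (1.76% of all genes) and Efemp1 at least 2-fold lower (2.05%). The other lower members were Fn1 and Eln. Each pair of these 3 comparisons shares a group of libraries, so their values are set side by side without a count of agreement.

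**Figure D3:**
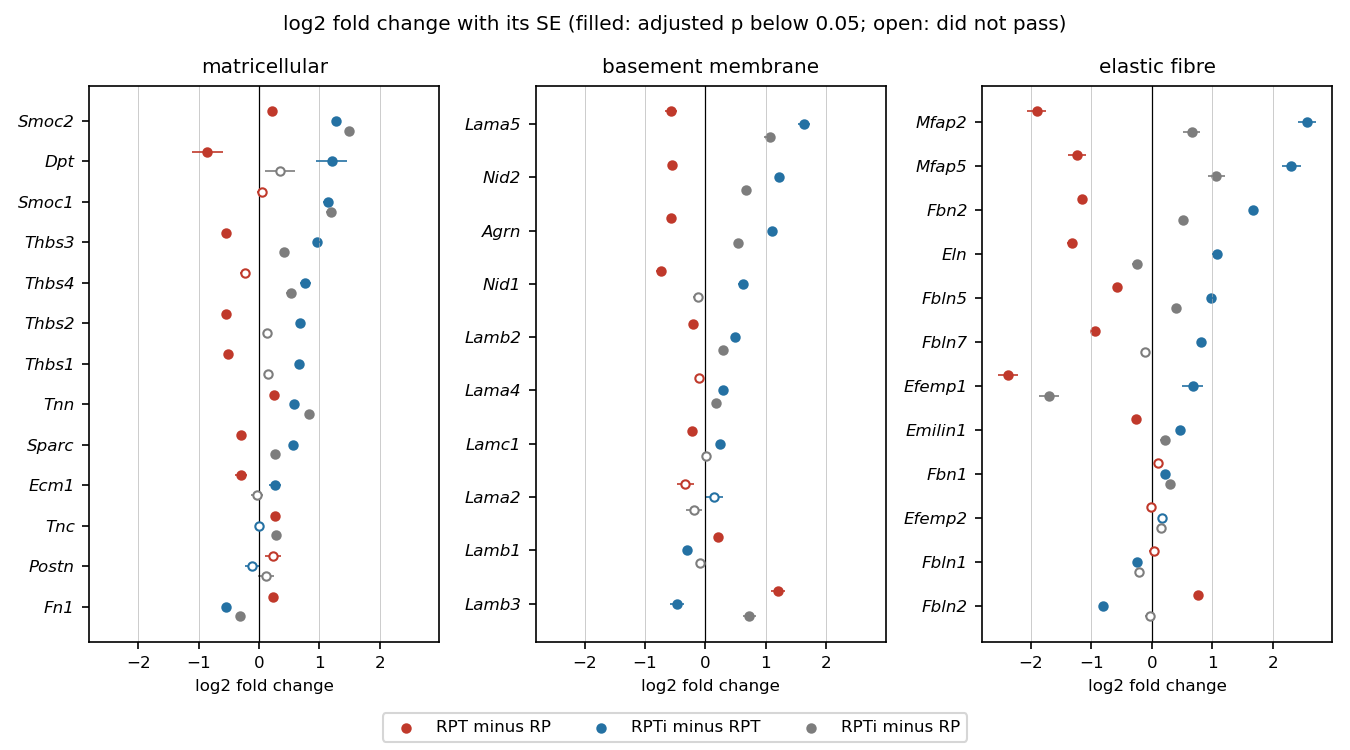
log2 fold change with its standard error for the 35 tested members in RPT minus RP (red), RPTi minus RPT (blue) and RPTi minus RP (grey), with filled points for adjusted p below 0.05 and open points for genes that did not pass. Red points lie mostly left of 0 and blue points mostly right of it, with Fn1, Lamb1, Lamb3, Fbln2, Fbln1 and Postn the other way round, among them open points for Postn in both and for Fbln1 in RPT minus RP.

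The stretches upstream of 4 of the 6 members that changed at least 2-fold with thrombin are given to show what lies next to their start sites. They are the 250 bases before the start of the gene in RefSeq's annotation of the rat assembly GRCr8, another build than the authors' Rnor_6.0, printed 5′ to 3′ on the gene's strand, which is the plus strand for all 4. Mfap2 and Mfap5 encode the related microfibril glycoproteins, and Efemp1 and Lamb3 had the largest fitted fall and rise among the members. They lie at chr5:158597478-158597727, chr4:157399669-157399918, chr14:106811614-106811863 and chr13:107362303-107362552. Capitals mark an AP-1 motif (TGA and TCA with any base between), the GC box GGGCGG, the core promoter motif TATAAA (the TATA box) or the cyclic AMP response element TGACGTCA (CRE), each searched on both strands.
Mfap2: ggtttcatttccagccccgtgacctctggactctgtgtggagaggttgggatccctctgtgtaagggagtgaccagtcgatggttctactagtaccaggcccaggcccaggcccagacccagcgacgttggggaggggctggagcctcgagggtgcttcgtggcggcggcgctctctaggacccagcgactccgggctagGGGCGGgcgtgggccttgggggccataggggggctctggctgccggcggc
Mfap5: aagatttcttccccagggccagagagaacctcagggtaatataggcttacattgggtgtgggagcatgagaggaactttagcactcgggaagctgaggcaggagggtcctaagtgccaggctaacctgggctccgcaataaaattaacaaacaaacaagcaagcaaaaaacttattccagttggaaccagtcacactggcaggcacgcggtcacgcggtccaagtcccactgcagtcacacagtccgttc
Efemp1: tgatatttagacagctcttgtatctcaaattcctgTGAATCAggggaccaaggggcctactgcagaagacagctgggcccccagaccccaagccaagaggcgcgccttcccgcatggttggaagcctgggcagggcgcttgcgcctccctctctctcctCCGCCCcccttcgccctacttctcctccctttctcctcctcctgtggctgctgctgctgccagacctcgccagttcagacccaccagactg
Lamb3: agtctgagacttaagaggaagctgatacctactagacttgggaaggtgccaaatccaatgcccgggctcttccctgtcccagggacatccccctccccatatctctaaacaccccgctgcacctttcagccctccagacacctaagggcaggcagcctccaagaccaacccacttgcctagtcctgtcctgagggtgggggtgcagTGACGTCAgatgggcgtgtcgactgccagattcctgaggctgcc
In Mfap2 the capitals are a GC box at -50, counted from the start site. The Efemp1 window holds an AP-1 motif at -215 and a GC box at -91, and the Lamb3 window a CRE at -44. None of the 4 motifs is in the Mfap5 window. The Fbn2 window, which is not printed, also holds none of them, and Eln matched no window. Of the 38 members with a row, 29 matched the table by symbol, with 31 windows because Fbln7 has 3. An AP-1 motif was in 2 of these 31 windows (Efemp1 and Ecm1) and in 6.34% of all 33469 windows, a GC box in 17 and 30.5%, a TATA box in 6 and 12.9%, and a CRE in 1 and 1.59%. The CRE was added to the search after the Lamb3 window had been read. Member windows had a median GC content of 60.4%, against 51.2% for all windows. The set of all windows was not limited to the tested genes, so these shares are not set against expressed genes alone. A match of letters is a description and not a shown binding site.

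Fn1 and the tenascins were higher with thrombin. Fn1 stood at 44819.7, 44882 and 43439.7 CPM in the RP libraries, 51927, 52532 and 51539 in RPT and 35052, 36592 and 35224 in RPTi. Every RPT library was above, and every RPTi library below, the RP libraries. The rise with thrombin was 1.17-fold (log2 0.23, SE 0.0360, adjusted p = 0.000434), and the level with the inhibitor was 1.46-fold lower than with thrombin alone (log2 -0.55, SE 0.0361) and 1.25-fold lower than in plasma. Tnc, encoding the hexameric glycoprotein tenascin C of developing and injured tissue, rose from 1306 ± 2.62 to 1578 ± 26.3 CPM (1.21-fold). With the inhibitor it stood at 1580.2 ± 125 CPM, which did not pass against thrombin alone (log2 0.00207, SE 0.0571, adjusted p = 0.98). Against plasma Tnc passed in RPTi, at a 1.21-fold higher level (log2 0.27, SE 0.0572). Tnc relative to Fn1, as a ratio of FPKM, was 0.0343 ± 0.000639 in RP, 0.0354 ± 0.000905 in RPT and 0.0517 ± 0.00284 in RPTi. Tnn, the gene of tenascin N (tenascin W), was higher in both comparisons, from 49.1 ± 1.27 CPM in RP to 58.2 ± 0.845 in RPT and 87.01 ± 5.37 in RPTi, with fold changes of 1.19 and 1.50.

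The thrombospondin genes, whose products bind calcium, heparin and cell receptors, were lowest with thrombin. Thbs1 stood at 4408, 4330.1 and 4448 CPM in RP, 2985, 2953 and 3281 in RPT and 4951, 5042 and 4667 in RPTi, so that the RPT libraries lay below all others. It fell 1.43-fold with thrombin (log2 -0.52, SE 0.0526, adjusted p = 1.22e-05) and was 1.59-fold higher with the inhibitor than without it. Thbs2, which like Thbs1 encodes a trimeric thrombospondin, changed by nearly the same factors (1.45-fold down and 1.60-fold up), and the ratio of Thbs1 to Thbs2 in FPKM was 4.31 ± 0.108, 4.38 ± 0.0366 and 4.35 ± 0.191 in RP, RPT and RPTi. The pentameric members were less abundant. Thbs3 went from 54.2 ± 0.728 to 37.2 ± 3.47 and 72.6 ± 2.18 CPM, a 1.46-fold fall and a 1.95-fold rise. Thbs4 did not pass with thrombin (log2 -0.23, SE 0.0871, adjusted p = 0.0632), except with the replicate number as a block (-0.23). It was 1.70-fold higher with the inhibitor than with thrombin alone. Against plasma, Thbs3 and Thbs4 were 1.34-fold and 1.45-fold higher in RPTi, while Thbs1 (log2 0.15, adjusted p = 0.0515) and Thbs2 (log2 0.14, adjusted p = 0.0848) did not pass. In that comparison Thbs1 passed without RPT replicate 2 (log2 0.15), RPT replicate 3 (0.15) or RPTi replicate 3 (0.18). It also passed with DESeq2 (0.16), with its size factors (0.16) and with only the 2 groups compared (0.15). Thbs2 passed without RPT replicate 3 (0.14) and with only the 2 groups compared (0.14). Both passed with the replicate number as a block (0.15 for Thbs1 and 0.14 for Thbs2).

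Sparc fell with thrombin, and of the SPARC-related modular calcium-binding genes Smoc2 rose slightly and Smoc1 did not pass. Sparc stood at 7889, 8239.7 and 7753 CPM in RP, 6209.6, 6649 and 6501 in RPT and 9375, 9363 and 9867 in RPTi, with no overlap between any of the groups. It fell 1.23-fold with thrombin (log2 -0.30, SE 0.0461) and was 1.48-fold higher with the inhibitor (log2 0.56, SE 0.0462). Its 1.20-fold excess over plasma did not pass on log2(FPKM + 1) (0.21, adjusted p = 0.0743). Smoc1, whose product can oppose BMP signalling, stood at 36.7, 38.5 and 34.5 CPM in RP, 38.6, 40.7 and 34.6 in RPT and 80.3, 91.3 and 80.1 in RPTi. RP and RPT overlapped, and the RPTi libraries were all higher than both. Smoc2 stood at 71.4, 66.96 and 67.3 CPM in RP, 81.5, 78.6 and 78.1 in RPT and 200.2, 178 and 201 in RPTi, in 3 separate ranges. With the inhibitor Smoc1 was 2.21-fold and Smoc2 2.43-fold higher than with thrombin alone, and 2.29-fold and 2.82-fold higher than in plasma (log2 1.20, SE 0.0822, and log2 1.49, SE 0.0642). The small rise of Smoc2 with thrombin (log2 0.21) did not pass without RP replicate 2 (0.19), RP replicate 3 (0.20) or RPT replicate 1 (0.19).

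The remaining glycoproteins of this class were less abundant. Postn, encoding the fibroblast and periosteum protein periostin, had overlapping levels in all groups (40.2 ± 5.10, 47.1 ± 7.45 and 43.7 ± 5.72 CPM). It passed in none of the 3 comparisons (edgeR, log2 0.23, -0.11 and 0.12). Only with the replicate number as a block did Postn pass with thrombin (0.23). Dpt stood at 1.85, 3.16 and 2.67 CPM in RP, 1.80, 1.05 and 1.34 in RPT and 3.34, 2.71 and 3.66 in RPTi, so that RPT lay below all others. It fell 1.81-fold with thrombin (log2 -0.86, SE 0.25, adjusted p = 0.0238) and was 2.30-fold higher with the inhibitor. The fall did not pass without RP replicate 2 (-0.68), RP replicate 3 (-0.82), RPT replicate 2 (-0.69) or RPT replicate 3 (-0.82). Ecm1, a secreted glycoprotein gene, went from 25.2 ± 0.655 to 20.4 ± 2.66 and 24.6 ± 1.88 CPM. Its fall with thrombin (log2 -0.30) did not pass without RP replicate 1 or 2, RPT replicate 1 or 3 or RPTi replicate 1 (-0.30 to -0.22) nor with only the 2 groups compared (-0.29). Its rise with the inhibitor (log2 0.27) did not pass without RP replicate 1 or 2, RPT replicate 1 or 3 or RPTi replicate 1 or 2 (0.19 to 0.27), with library totals (0.20), on log2(FPKM + 1) (0.19) or with only the 2 groups compared (0.28). Vtn, the gene of the plasma adhesion protein vitronectin, which is made mainly in liver, was near 0 counts throughout.

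Among the laminin genes, Lamb3 and Lamb1 rose with thrombin, while Lama5, Lamb2 and Lamc1 fell. In RP the alpha chain with the highest level was Lama4 (45.9 ± 0.324 FPKM), ahead of Lama5 (1.99 ± 0.0183) and Lama2 (0.491 ± 0.0142). For the beta chains the order was Lamb2 (50.1 ± 2.43 FPKM), Lamb1 (11.6 ± 0.367) and Lamb3 (4.28 ± 0.395), and the common gamma chain gene Lamc1 stood at 69.9 ± 1.13 FPKM. This order of levels was the same in all 3 groups. Lamb3, a beta chain of epithelial laminin, stood at 16.9, 19.6 and 16.3 CPM in RP, 42.7, 44.7 and 33.6 in RPT and 27.96, 31.9 and 27.5 in RPTi, and no groups overlapped. It rose 2.29-fold with thrombin (log2 1.20, SE 0.11, adjusted p = 6.62e-06), was 1.39-fold lower with the inhibitor, and stayed 1.66-fold above plasma. Lamb1 rose 1.16-fold and Lamb2 fell 1.15-fold with thrombin. With the inhibitor, Lamb1 was 1.23-fold lower and Lamb2 1.41-fold higher. As a ratio of FPKM, Lamb3 to Lamb2 was 0.0854 ± 0.00417 in RP, 0.225 ± 0.0137 in RPT and 0.116 ± 0.0104 in RPTi, with no overlap between the groups. The calls of Lamb1 and Lamb2 with thrombin were close to the threshold. Lamb1 did not pass without RP replicate 2 (0.19) or RP replicate 3 (0.20). Lamb2 (log2 -0.20, adjusted p = 0.0433) did not pass without RP replicate 1 or 2, RPT replicate 1 or 3 or any single RPTi replicate (-0.22 to -0.13), with DESeq2 size factors (-0.20), with library totals (-0.19), on log2(FPKM + 1) (-0.19) or with only the 2 groups compared (-0.19).

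Of the alpha chains, Lama5 fell with thrombin and was highest with the inhibitor. Lama5, the alpha chain of many adult basement membranes, stood at 22.6, 22.3 and 22.00 CPM in RP, 13.98, 17.6 and 13.6 in RPT and 50.1, 44.98 and 44.6 in RPTi, and the ranges were separate. It fell 1.48-fold with thrombin (log2 -0.57, SE 0.0981, adjusted p = 0.000888) and was 3.10-fold higher with the inhibitor, 2.09-fold above plasma. Lama4 went from 271 ± 2.67 to 251 ± 6.30 and 306 ± 8.59 CPM. It did not pass with thrombin (log2 -0.11, adjusted p = 0.134), except with the replicate number as a block (-0.11). Lama4 was 1.22-fold higher with the inhibitor than with thrombin alone. The ratio of Lama5 to Lama4 in FPKM was 0.0433 ± 0.000146, 0.0315 ± 0.00510 and 0.0799 ± 0.00600 in RP, RPT and RPTi. Against plasma, Lama4 passed with log2 0.18, but not without any single RP replicate, RPTi replicate 1 or RPTi replicate 3 (0.15 to 0.19), with library totals (0.12) or on log2(FPKM + 1) (0.12). Lama2, the alpha chain of muscle, passed in none of the 3 comparisons (edgeR, log2 -0.34, 0.15 and -0.19), at 4.62 ± 0.167 CPM in RP. Lamc1 fell 1.17-fold with thrombin and was 1.18-fold higher with the inhibitor, and did not pass against plasma (log2 0.0155, SE 0.0509).

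The linkers of the basement membrane fell with thrombin, and with the inhibitor Nid2 and Agrn were above plasma. Nid2 stood at 1631, 1648 and 1638 CPM in RP, 1128, 1115 and 1101 in RPT and 2647, 2559.6 and 2602 in RPTi, a spread within groups far smaller than the distance between them. It fell 1.47-fold (log2 -0.56, SE 0.0437, adjusted p = 1.57e-06), was 2.33-fold higher with the inhibitor (log2 1.22, SE 0.0442), and exceeded plasma 1.59-fold. Its relative Nid1 fell 1.67-fold, and with the inhibitor reached 241 ± 6.28 CPM against 261 ± 19.97 in plasma (log2 -0.12, adjusted p = 0.331). The ratio of Nid2 to Nid1 in FPKM was 7.88 ± 0.607 in RP, 8.997 ± 1.08 in RPT and 13.5 ± 0.430 in RPTi, where RP and RPT overlapped and RPTi lay above both. Agrn, the gene of the heparan sulfate proteoglycan agrin, stood at 113, 116 and 113 CPM in RP, 76.7, 79.2 and 74.96 in RPT and 168, 163 and 164 in RPTi. It fell 1.48-fold with thrombin and was 2.15-fold higher with the inhibitor, 1.45-fold above plasma, and its 3 ranges were separate. The row named AABR07073181.1, which the supplied RefSeq table lists as a synonym of the perlecan gene Hspg2, is outside the members by the rule of choice and was looked up after the other values had been seen. It stood at 1152 ± 89.0 CPM in RP, 966 ± 87.3 in RPT and 1726 ± 85.5 in RPTi, 1.19-fold lower with thrombin and 1.79-fold higher with the inhibitor. The fall of AABR07073181.1 did not pass without RP replicate 1 or 2 or RPT replicate 1 or 3 (log2 -0.26 to -0.19), or with only the 2 groups compared (-0.24).

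All 5 members that fell at least 2-fold with thrombin were elastic fibre genes: the microfibril glycoproteins Mfap2 and Mfap5, Fbn2, Eln and Efemp1. Mfap2, the gene of microfibril-associated glycoprotein 1, stood at 22.00, 21.7 and 18.1 CPM in RP, 5.49, 6.99 and 3.99 in RPT and 32.5, 32.03 and 32.96 in RPTi. It fell 3.75-fold with thrombin (log2 -1.91, SE 0.15, adjusted p = 1.78e-06), and with the inhibitor it was 5.92-fold higher (log2 2.57, SE 0.15). Its relative Mfap5 stood at 5.61, 6.49 and 6.26 CPM in RP, 2.20, 2.75 and 2.84 in RPT and 10.6, 14.9 and 13.03 in RPTi, a 2.36-fold fall and a 4.95-fold rise. None of the 3 groups overlapped for either gene, and both were highest in RPTi, 1.58-fold and 2.10-fold above plasma. Mfap4, another gene of a microfibril-associated glycoprotein, had at most 2 counts in a library.

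**Figure D4:**
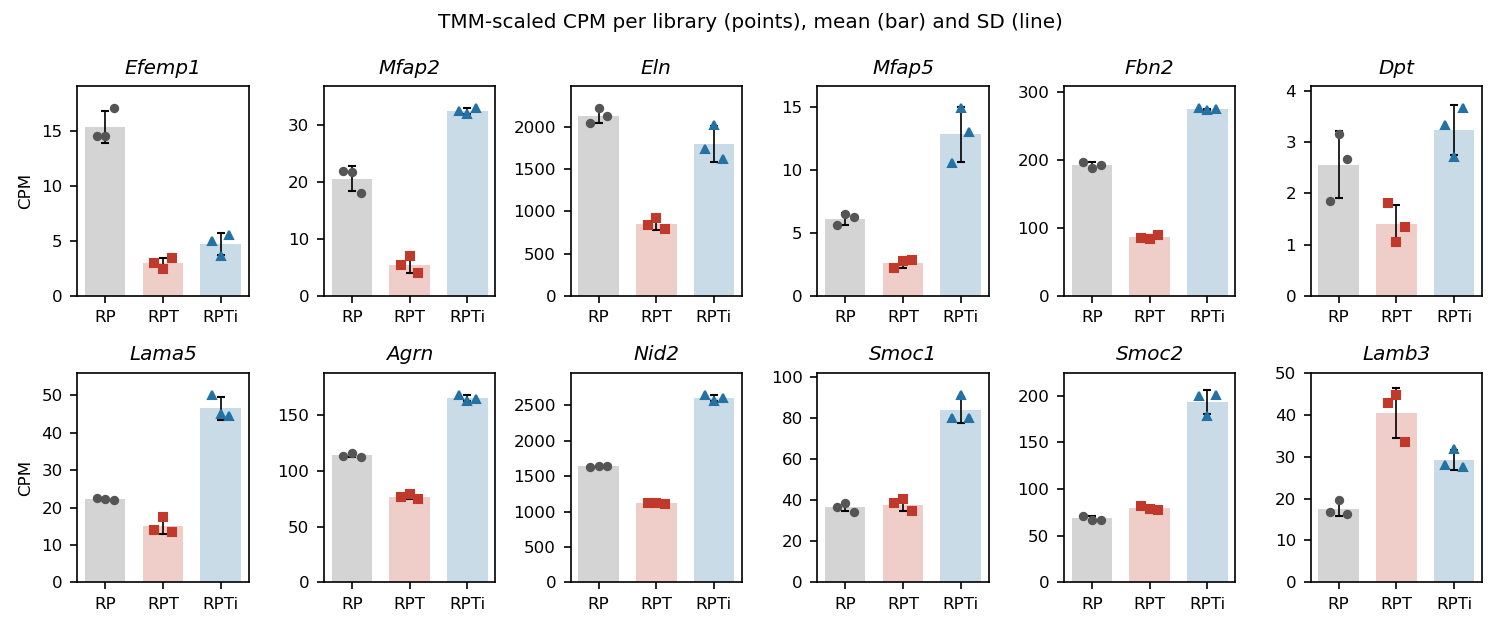
TMM-scaled CPM per library (points), group mean (bar, axis from 0) and SD (line, n = 3) for the 12 members called with at least a 2-fold change in any comparison, ordered from the largest fall to the largest rise with thrombin. Efemp1 stays low in RPTi, Eln returns most of the way to plasma, Smoc1 and Smoc2 are raised in RPTi, and Lamb3 is highest in RPT.

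Of the fibrillin genes, which encode the microfibril backbone, Fbn2 fell with thrombin and Fbn1 did not pass. Fbn2, the fibrillin that predominates in embryonic tissue, stood at 197, 188 and 193 CPM in RP, 85.2, 83.4 and 90.1 in RPT and 275, 274 and 274 in RPTi, again without overlap. It fell 2.23-fold with thrombin (log2 -1.16, SE 0.0537, adjusted p = 3.25e-08) and was 3.18-fold higher with the inhibitor (log2 1.67, SE 0.0542). Fbn1, the main fibrillin of adult tissue, did not pass with thrombin (406 ± 19.6 CPM in RP and 433 ± 7.80 in RPT, log2 0.0935, SE 0.0527) and was 1.16-fold higher with the inhibitor than with thrombin alone. The ratio of Fbn2 to Fbn1 in FPKM was 0.601 ± 0.0311 in RP, 0.252 ± 0.0135 in RPT and 0.692 ± 0.0101 in RPTi. Mfap2 to Fbn1 gave 0.484 ± 0.0291, 0.121 ± 0.0312 and 0.619 ± 0.0124 in the same order. These ratios did not overlap between groups. The ratios between genes are given as a description and were not tested.

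**Figure D5:**
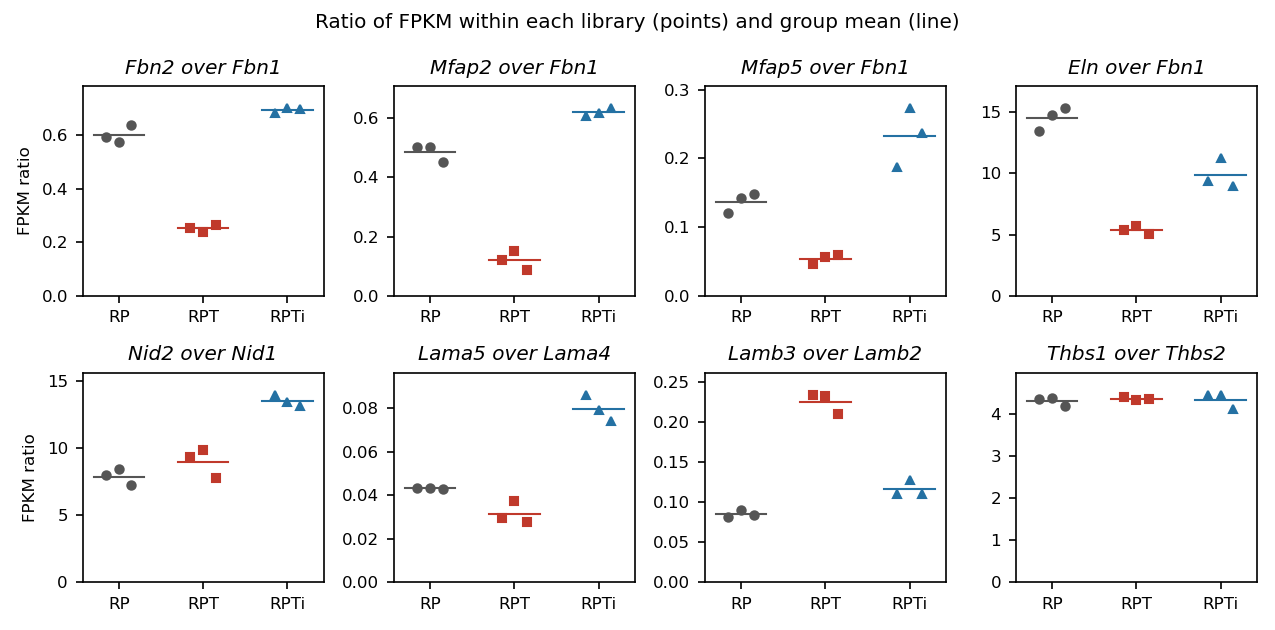
Ratio of FPKM between pairs of related genes within each library (points) and group mean (line), on axes from 0, for RP, RPT and RPTi. Fbn2, Mfap2, Mfap5 and Eln drop relative to Fbn1 in RPT, Lamb3 gains on Lamb2 there, Nid2 gains on Nid1 and Lama5 on Lama4 in RPTi, and Thbs1 over Thbs2 overlaps between the groups.

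Eln, the gene of the elastin core, stood at 2047, 2220.0 and 2126 CPM in RP, 841, 917 and 791 in RPT and 1746, 2029 and 1624 in RPTi. All RPT libraries were below all others, and the RPTi libraries were below the RP libraries. Eln fell 2.51-fold with thrombin (log2 -1.33, SE 0.0810, adjusted p = 1.98e-07) and was 2.12-fold higher with the inhibitor. Its remaining distance from plasma was log2 -0.24 (SE 0.0796, adjusted p = 0.0415), which did not pass without any single RP replicate, RPT replicate 1, RPTi replicate 1 or RPTi replicate 3 (-0.27 to -0.18). The ratio of Eln to Fbn1 in FPKM was 14.5 ± 0.948 in RP, 5.40 ± 0.320 in RPT and 9.87 ± 1.23 in RPTi. Emilin1, whose product lies between elastin and microfibrils, went from 189.7 ± 8.70 to 159 ± 15.8 and 219.5 ± 4.67 CPM, 1.19-fold down and 1.38-fold up. The fall of Emilin1 did not pass without RP replicate 1 (-0.24) or 2 (-0.23) or with only the 2 groups compared (-0.24). Its excess over plasma (log2 0.21, adjusted p = 0.0489) did not pass without any single RP or RPTi replicate or RPT replicate 1 (0.17 to 0.23), with library totals (0.16), with no filter (0.21) or on log2(FPKM + 1) (0.16).

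The fibulin family split into members that fell, a member that rose and members that did not pass. Efemp1 (fibulin 3), a glycoprotein of elastic tissues and eye, stood at 14.5, 14.5 and 17.03 CPM in RP, 2.95, 2.44 and 3.44 in RPT and 4.95, 3.62 and 5.53 in RPTi. It fell 5.20-fold with thrombin (log2 -2.38, SE 0.17, adjusted p = 5.87e-07). The inhibitor was accompanied by a 1.60-fold higher level than thrombin alone, but this was still 3.25-fold below plasma (log2 -1.70, SE 0.16), and the 3 groups did not overlap. Fbln5, needed for elastic fibre assembly, and Fbln7 fell 1.48-fold and 1.92-fold. With the inhibitor Fbln5 was 1.96-fold higher and Fbln7 1.77-fold higher, which put Fbln5 1.32-fold above plasma and Fbln7 close to it (log2 -0.12, SE 0.0615, adjusted p = 0.185, passing on log2(FPKM + 1) at -0.17). Fbln2 went the other way. It stood at 165, 170.0 and 161 CPM in RP, 283, 299 and 264 in RPT and 149, 178 and 157 in RPTi, 1.71-fold up with thrombin (log2 0.77, SE 0.0726) and 1.75-fold down with the inhibitor. Its RP and RPTi libraries overlapped, below all RPT libraries. Efemp2 (fibulin 4), which brings lysyl oxidase to elastin, stood at 242 ± 13.6, 239 ± 16.5 and 269 ± 4.92 CPM. Efemp2 lay just above the threshold with the inhibitor against thrombin alone (log2 0.17, adjusted p = 0.0502). It passed there with DESeq2 (0.17), with at least 1 CPM in 3 libraries (0.17) and without RP replicate 2 (0.17), RP replicate 3 (0.17) or RPT replicate 2 (0.22). Efemp2 also passed there (0.17) and against plasma (0.15) with the replicate number as a block. Fbln1 did not pass with thrombin (log2 0.0322) and was 1.18-fold lower with the inhibitor, a call lost without RPT replicate 1 or 2 or any single RPTi replicate (-0.25 to -0.17) and with only the 2 groups compared (-0.23). Against plasma Fbln1 was at log2 -0.21 and passed without RPT replicate 3 (-0.21), with library totals (-0.26) and on log2(FPKM + 1) (-0.24). It also passed there with only the 2 groups compared (-0.20) and with the replicate number as a block (-0.20).

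Genes that act with these members were read from 4 lists, to be set beside all tested genes. Of all tested genes 13.6% rose and 15.2% fell with thrombin, and 20.4% rose and 21.1% fell between RPT and RPTi. In RPTi against plasma, 11.9% were higher and 12.3% lower. Of 21 tested receptors for these glycoproteins, 8 rose and 5 fell with thrombin, and 8 rose and 9 fell between RPT and RPTi. Itga3, the alpha chain of a laminin-binding integrin, was 6.26-fold lower with the inhibitor than with thrombin alone (log2 -2.65, SE 0.12) and 3.38-fold lower than in plasma. The collagen receptor gene Itga11 fell 1.87-fold with thrombin and was 2.63-fold higher with the inhibitor, and Itga9, whose product binds tenascin C, fell 2.39-fold with thrombin. In RPTi against plasma, 7 of the receptors were higher and 5 lower. Itgav, the alpha chain of receptors for vitronectin and fibronectin, was 1.48-fold lower there.

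Of 17 tested genes of elastic fibre assembly and latent TGF-beta binding, 3 rose and 4 fell with thrombin (28.9% of all genes called), while 9 rose and 6 fell between RPT and RPTi (41.5%). With so few genes, the thrombin count is not far from the share over all genes. Ltbp2, whose product binds fibrillin microfibrils, rose 2.31-fold with thrombin, and Ltbp1 was 2.06-fold lower with the inhibitor than with thrombin alone. Adamtsl4, encoding a fibrillin-binding protein, fell 1.38-fold with thrombin and was 1.60-fold higher with the inhibitor. In RPTi against RP, 6 of these genes were higher and 6 lower (24.2% of all genes called). The cross-linking enzyme gene Lox was 1.71-fold higher there and Ltbp1 1.66-fold lower.

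Of 19 other tested basement membrane genes, 13 fell with thrombin and 6 did not pass, with a median log2 fold change of -0.46 (15.2% falling and a median of -0.000707 over all genes). With the inhibitor against thrombin alone 14 rose and 2 fell, with a median of 0.90 (20.4% rising and a median of -0.00827 over all genes). Fras1 and Hmcn1, which encode large extracellular proteins of epithelial basement membranes and cell junctions, fell 2.55-fold and 2.46-fold and were 4.93-fold and 3.22-fold higher with the inhibitor. In RPTi against plasma, 8 were higher and 3 lower, with a median of 0.30 (11.9% higher, 12.3% lower and a median of -0.00643 over all genes). Col18a1, the gene of a basement membrane collagen, was 2.13-fold lower there and Fras1 1.94-fold higher.

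Of 18 other tested matricellular and adhesive glycoproteins, 2 rose and 7 fell with thrombin (13.6% and 15.2% of all genes), and 9 rose and 3 fell with the inhibitor against thrombin alone (20.4% and 21.1%). Nov (CCN3) fell 2.07-fold with thrombin, and Comp, the cartilage thrombospondin and also 1 of the chondrocyte markers, was 2.74-fold higher with the inhibitor than with thrombin alone. Spp1, the osteopontin gene, moved against most of the members, 2.35-fold up with thrombin and 11.9-fold down with the inhibitor. In RPTi against plasma, 6 of these glycoprotein genes were higher and 2 lower (11.9% and 12.3% of all genes). Spp1 was 5.07-fold lower there and Comp 1.74-fold higher.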

How the data were processed

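Poly-T-selected RNA was sequenced from 9 libraries, 3 per group, with the NEBNext Ultra RNA kit per the labels' protocols, which does not mark strand, so overlapping and antisense genes cannot be separated. The authors deposited whole-number counts per gene and FPKM values, per the file headers, and per the submitters' processing notes the build was Rnor_6.0 and the tools included HISAT2, HTSeq (0.11.2) and DESeq2 (1.26.0). The deposited FPKM equal each count divided by a gene length and the library total, to within a relative difference of 2.23e-13, and carry no TMM scaling.

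Counts were tested with edgeR 4.0.16 in R 4.3.3: filterByExpr (minimum count 10, minimum total 15), TMM factors, a quasi-likelihood fit over all 9 libraries with a coefficient per group, and Benjamini-Hochberg adjustment over 13856 genes, with 0.05 as the threshold. The standard error is the absolute log2 fold change divided by the square root of F. Levels between groups are TMM-scaled CPM and levels between genes are FPKM. The test was also run on counts simulated from its own fitted model, which cannot show how well that model holds for these data.

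The members and gene lists were chosen with earlier results of these data known. Full values were given for members with an adjusted p below 0.05 and a fold of at least 2 in any comparison and for the 5 highest by FPKM, and other members are given by class. Per list of related genes and comparison, up to 2 called genes with the smallest p are named. Alternatives were the DESeq2 1.42.0 test, its size factors, library totals, no filter, at least 1 CPM in 3 libraries, limma 3.58.1 on log2(FPKM + 1), the 2 compared groups alone, a replicate block and leaving out each library. Replicate numbers were not taken as pairs. A planned search of the proteins for the integrin-binding letters RGD was not run.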

Additional observations from a re-analysis of the deposited data

How the results depend on the processing

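Of 105 fold changes (35 members in 3 comparisons), 77 kept their direction and their side of the threshold under all 17 alternatives. Over the 1785 values this gives, 1677 were on the same side, 68 had lost the call, 26 had gained one and 14 had changed sign. Leaving out each library in turn gave 5 to 7 members higher and 16 to 19 lower in RPT against RP, 25 to 27 and 4 to 5 in RPTi against RPT, and 17 to 21 and 2 to 4 in RPTi against RP. The count of members lower in RPTi than in RP was 5 on log2(FPKM + 1), against 3. A fold of at least 2 was not kept under every alternative. In RPT against RP the log2 value of Mfap5 shrank to -0.96 at the least. The smallest values in RPTi against RPT were 0.57 for Dpt, 0.96 for Agrn and 0.99 for Eln. In RPTi against RP they were 0.89 for Mfap5 and 0.74 for Lama5. The sign changes were all in fold changes that had not passed. With library totals, log2 values became 0.000907 for Efemp2 in RPT against RP, -0.069 for Tnc in RPTi against RPT and -0.038 for Lamc1 in RPTi against RP. On log2(FPKM + 1) they became -0.071 for Tnc and -0.037 for Lamc1 in the same comparisons. With each library left out in turn, Fbln1 ranged from -0.035 to 0.11 and Efemp2 from -0.067 to 0.032 in RPT against RP. In RPTi against RPT the range was -0.065 to 0.037 for Tnc and -0.22 to 0.011 for Postn. In RPTi against RP it was -0.11 to 0.019 for Fbln2 and -0.089 to 0.020 for Ecm1. The cause of these changes was not tested. Libraries with the same replicate number correlated at -0.114 to 0.124 in their deviations from the group means, and those with other numbers at -0.161 to 0.143. Of the same-number pairs 2 of 9 were above 0.1, and 2 of 9 libraries matched their own number best. These values cannot decide whether libraries of the same number shared an animal, culture or batch, which the labels do not say. With the replicate number as a block, 8 members were higher and 22 lower in RPT against RP, 27 and 5 in RPTi against RPT, and 22 and 4 in RPTi against RP. Counting AABR07073181.1 with the members, an alternative chosen after seeing the data, would add 1 to those lower in RPT and 1 to those higher in RPTi in each comparison. With 3 libraries per group, Lama1, Vtn and Mfap4 were too scarce to compare at this depth.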
